A study of Mus musculus with 36 samples.

Results

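The AP-1 transcription factors were followed in mouse embryonic stem cells (mESCs) on soft and stiff substrates. The group was a fixed list of 8 genes, namely Fos, Fosb, Fosl1, Fosl2, Jun, Junb, Jund and Atf3, found by symbol among the 49671 genes of the count table. All 8 were found, and all 8 passed the filter on low counts, which kept 17702 genes. The list was set by name and not by a cut-off on expression, but earlier results of these data were known when it was chosen.

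AP-1 is a family of dimeric transcription factors of the basic leucine zipper (bZIP) class. A Fos protein binds DNA as a partner of another bZIP protein, chiefly a Jun protein. Jun proteins also pair with each other and with ATF proteins such as Atf3. Many members are immediate-early genes, which serum, growth factors and mechanical load induce within minutes through the ERK and JNK kinases, and Fosl1 is known as a gene that depends on sustained ERK activity.

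The substrates were StemBond hydrogels, soft or stiff, in which matrix protein is tethered covalently to polyacrylamide, and tissue culture plastic. All 36 RNA-seq libraries were labelled 129m wt, and every medium held serum. At 24 h both hydrogels were sampled in serum + LIF. At 48 h they were sampled in 4 media, which were serum alone, serum with LIF, serum with PD03 and serum with both, and plastic in serum + LIF. LIF is a cytokine that maintains self-renewal through STAT3, and PD03 (PD0325901) is a small-molecule inhibitor of MEK, the kinase that activates ERK. There were 11 groups, 10 of them with 3 libraries and 1, soft substrates in serum + PD03, with 6. The labels do not say that the libraries of a group came from separate cultures, so p-values measure only the spread between these libraries.

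The libraries held 10405696 to 26635239 counts. Levels are given as CPM, read counts relative to the library total, scaled by TMM, a scaling that sets most genes level between libraries. Differences are log2 fold changes, each with its standard error (SE). The adjusted p is that of edgeR's quasi-likelihood test after Benjamini-Hochberg adjustment over all 17702 genes, and a gene was called when it fell below 0.05. Values of 3 libraries are listed as library 1, 2 and 3 in the order of the table's columns, and the numbers are only names. In bulk RNA, fewer cells that express a gene and less RNA per cell cannot be told apart. The 5 pluripotency markers (Pou5f1, Sox2, Nanog, Esrrb and Zfp42) summed to 1657 to 3017 CPM in every library and were thus present as the label of embryonic stem cells requires. Of these 5, 3 were called higher on soft than on stiff substrates at 24 h, 4 in serum, 0 in serum + LIF at 48 h and 3 in each medium with PD03. Of the markers of other cell types, the 7 fibroblast markers summed to between 22.2 and 91.3 CPM and the 6 primitive endoderm markers to between 45.0 and 139.5 CPM.

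An identifier in the sample descriptions took 3 values. All 24 h and plastic samples carried the first. The stiff samples at 48 h carried the second, except 1 of the 3 in serum + LIF with the first, and the soft samples at 48 h carried the third, except 2 of the 6 in serum + PD03 with the second. Soft and stiff samples at 24 h therefore shared an identifier, while substrate and identifier nearly coincided at 48 h. The columns of the count table do not show which library of a mixed group belongs to which identifier, so fits with the identifier as a term were run over all 45 possible assignments.

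The genes lie on 7 chromosomes (build GRCm38, GENCODE M21 annotation). Jun (ENSMUSG00000052684, chr4:95049034-95052222, minus strand) and Jund (ENSMUSG00000071076, chr8:70698949-70700616, plus strand) have a single exon. Junb (ENSMUSG00000052837) lies at chr8:84974484-84978718 on the minus strand. Fos (ENSMUSG00000021250) lies at chr12:85473890-85477273 on the plus strand and Fosb (ENSMUSG00000003545) at chr7:19302696-19310051 on the minus strand. Fosl1 (ENSMUSG00000024912) lies at chr19:5447547-5455946 and Fosl2 (ENSMUSG00000029135) at chr5:32135801-32157842, both on the plus strand. Atf3 (ENSMUSG00000026628) lies at chr1:191170296-191218039 on the minus strand. The strand setting of the counting was not stated, so reads from an overlapping gene on the other strand cannot be told apart from those of the member. Fosl1 shares 1163 exon bases with Ccdc85b, which had 17 to 72 counts per library. Junb shares 173 exon bases with Prdx2, which had 1466 to 4138 counts. Jun shares 232 with the antisense gene Junos, which had 0 to 7 counts. Jund shares 877 of its 1668 exon bases with the antisense gene Gm11175, which had 0 counts in every library. How reads over shared bases were counted was not stated, which bears on the levels per kb given below.

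Jund was the most abundant member per length in every group. To compare genes with each other, CPM was divided by the summed exon length in kb. On this scale Jund ranged from 28.3 CPM per kb on soft substrates in serum to 59.5 on stiff substrates in serum + LIF + PD03 (group means), and in all 11 groups its libraries lay above those of every other member. Junb stood second in 9 groups, at 6.63 to 13.3 CPM per kb, and Jun second in the other 2, which were the stiff groups with PD03, at 8.93 and 10.1. On soft substrates with PD03 the libraries of Junb and Jun overlapped, so their order there was not resolved. Fosl1 stood in place 3 or 4 in the 7 groups without PD03, at 2.63 to 5.31 CPM per kb, and in place 7 in the 4 groups with PD03, at 0.437 to 0.737. Fosb had the lowest group mean in all 11 groups, at 0.198 to 0.559 CPM per kb. At 48 h on soft substrates its libraries overlapped those of Atf3 in serum + LIF and those of Fos in serum, so the last place was not resolved there. Fos and Atf3 were neighbours in the lower ranks of all 7 groups without PD03, and their libraries overlapped in 6 of them, so their order there was not resolved either.

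**Figure D1:**
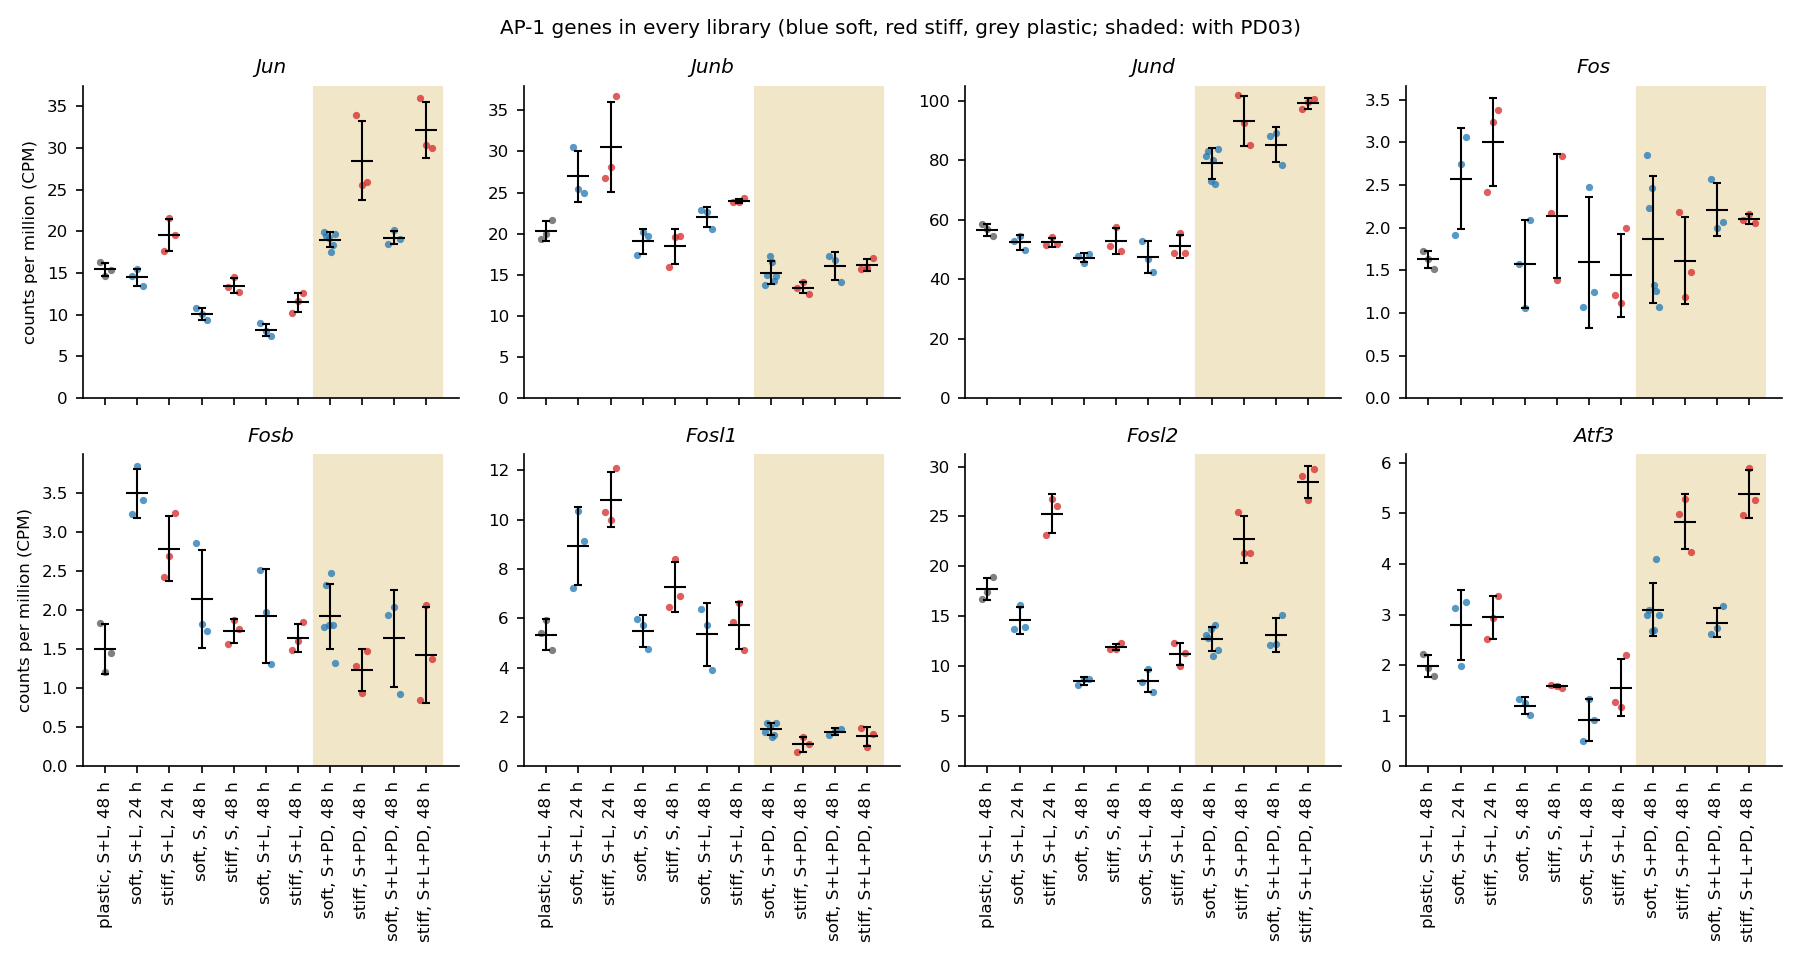
Level of each AP-1 gene in every library, in CPM on a linear axis from 0, by group. Points are libraries (blue soft, red stiff, grey plastic), the long bars are means, the error bars are SD, S is serum, L is LIF, PD is PD03, and shading marks PD03. Fosl1 falls from 3.92 to 12.1 CPM in the libraries without PD03 to at most 1.77 CPM in those with it, while Jund rises from at most 58.5 to at least 72.1 CPM.

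Soft against stiff substrates addressed whether AP-1 transcripts follow the stiffness of the matrix. In all 5 media and times Jun was lower on soft than on stiff, by 1.33-fold to 1.67-fold. Fosl2 was lower in 4 of the 5, by 1.40-fold to 2.17-fold. Atf3 and Jund were lower only in the media with PD03 as far as the test could call them. No member was called higher on soft substrates in any medium. At 48 h substrate and identifier nearly coincided. With the identifier as a term, Jun was called at 48 h only in the media with PD03.

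Fosl2 encodes Fra-2, a Fos-family protein that lacks a strong activation domain. At 24 h in serum + LIF it stood at 13.8, 16.1 and 13.9 CPM on soft and at 23.1, 26.8 and 26.01 CPM on stiff substrates. All soft libraries lay below all stiff libraries, with a log2 fold change of -0.79 (SE 0.10, n = 3 against 3, edgeR adjusted p = 2.21e-07). These 6 libraries share an identifier. At 48 h in serum it stood at 8.09, 8.74 and 8.77 CPM on soft and at 11.8, 11.8 and 12.3 CPM on stiff substrates, a log2 fold change of -0.48 (SE 0.11, edgeR adjusted p = 0.00428). In serum + LIF at 48 h the 3 soft libraries at 8.47, 9.72 and 7.46 CPM again lay below the stiff ones at 12.3, 10.1 and 11.3 CPM. That difference of -0.39 on the log2 scale (95% interval -0.63 to -0.15) did not pass the threshold (edgeR adjusted p = 0.12).

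With PD03 the difference in Fosl2 was larger in value. In serum + PD03 the 6 soft libraries ranged from 11.04 to 14.1 CPM with a median of 13.01, and the stiff libraries stood at 25.4, 21.3 and 21.4 CPM. The groups did not overlap, and the level on soft was 1.77-fold lower (log2 fold change -0.83, SE 0.09, edgeR adjusted p = 6.8e-10). In serum + LIF + PD03 the soft libraries stood at 12.1, 12.2 and 15.1 CPM and the stiff libraries at 29.01, 26.6 and 29.8 CPM. Among the 8 members and 5 comparisons this was the largest difference, with Fosl2 2.17-fold lower on soft (log2 fold change -1.12, SE 0.10, edgeR adjusted p = 2.44e-12).

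Jun encodes c-Jun, the founding Jun protein and a substrate of JNK. At 24 h in serum + LIF it stood at 14.6, 15.4 and 13.4 CPM on soft and at 17.6, 21.6 and 19.6 CPM on stiff substrates. The groups did not overlap (log2 fold change -0.44, SE 0.10, edgeR adjusted p = 0.00609). At 48 h in serum the values were 10.9, 10.1 and 9.43 CPM on soft and 13.3, 14.5 and 12.7 CPM on stiff (log2 fold change -0.41, SE 0.11, edgeR adjusted p = 0.015). In serum + LIF they were 8.97, 8.06 and 7.46 CPM against 10.2, 11.6 and 12.6 CPM (log2 fold change -0.50, SE 0.12, edgeR adjusted p = 0.0268). Every soft library lay below every stiff library in each of these media.

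In the media with PD03, Jun was again lower on soft. In serum + PD03 the 6 soft libraries ranged from 17.5 to 19.9 CPM with a median of 19.3, against 33.95, 25.5 and 25.9 CPM on stiff (log2 fold change -0.58, SE 0.08, edgeR adjusted p = 1.41e-06). In serum + LIF + PD03 the libraries stood at 18.5, 20.1 and 19.1 CPM on soft and at 36.01, 30.4 and 30.05 CPM on stiff (log2 fold change -0.74, SE 0.09, edgeR adjusted p = 6.1e-08). In both media library 1 of the stiff group was the highest, and without it the differences were still called. In serum + LIF + PD03 on stiff substrates Jun reached its highest group mean, 32.2 CPM, which was 3.94 times the lowest, 8.16 CPM on soft in serum + LIF at 48 h.

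Atf3, a stress-induced factor that often represses transcription, was low throughout, with 8 to 131 counts per library. In serum + PD03 the 6 soft libraries ranged from 2.67 to 4.10 CPM with a median of 2.99, and the stiff libraries stood at 4.997, 5.28 and 4.24 CPM. All soft libraries lay below the stiff ones, though the highest soft library was close to the lowest stiff one (log2 fold change -0.65, SE 0.18, edgeR adjusted p = 0.0153). In serum + LIF + PD03 the values were 2.62, 2.74 and 3.16 CPM on soft and 4.97, 5.90 and 5.27 CPM on stiff (log2 fold change -0.92, SE 0.20, edgeR adjusted p = 0.00132). Without PD03 the values for Atf3 at 48 h were lower on soft but not called, at -0.40 in serum (95% interval -0.94 to 0.14) and -0.80 in serum + LIF (-1.40 to -0.20, edgeR adjusted p = 0.255). At 24 h its libraries overlapped, at -0.08 (-0.53 to 0.37).

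Jund, which encodes a Jun protein present in most resting cells, differed little. In serum + PD03 it ranged from 72.1 to 83.8 CPM with a median of 80.9 over the 6 soft libraries and stood at 102, 92.5 and 85.2 CPM on stiff. The groups did not overlap, and soft was 1.18-fold lower (log2 fold change -0.24, SE 0.06, edgeR adjusted p = 0.0058). In serum + LIF + PD03 it stood at 88.1, 89.2 and 78.6 CPM on soft and at 97.2, 99.7 and 100.8 CPM on stiff (log2 fold change -0.22, SE 0.07, edgeR adjusted p = 0.0299).

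Fos, Fosb, Fosl1 and Junb were not called between soft and stiff substrates in any of the 5 comparisons. Fos encodes c-Fos, and its libraries overlapped in all 5, with 16 to 78 counts per library and differences from -0.44 to 0.24. Fosb had values above 0 in all 5, from 0.21 to 0.65, but its libraries overlapped in each. Fosl1 encodes Fra-1 and had values of -0.39 in serum and 0.68 in serum + PD03 (95% interval 0.17 to 1.19, edgeR adjusted p = 0.115), with no overlap of libraries in either. Junb lay between -0.19 and 0.18.

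Counted over the list, 2 of 8 members were called lower on soft at 24 h, where 2.52% of all genes tested were. At 48 h the counts were 2 of 8 in serum (2.77% of all genes), 1 of 8 in serum + LIF (0.333%), 4 of 8 with PD03 in serum (3.42%) and 4 of 8 with PD03 and LIF (4.82%). The median log2 fold change of the 8 members was -0.20, -0.40, -0.11, -0.03 and -0.11 in the same order, and that of all genes tested lay between -0.0028 and 0.0103.

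**Figure D2:**
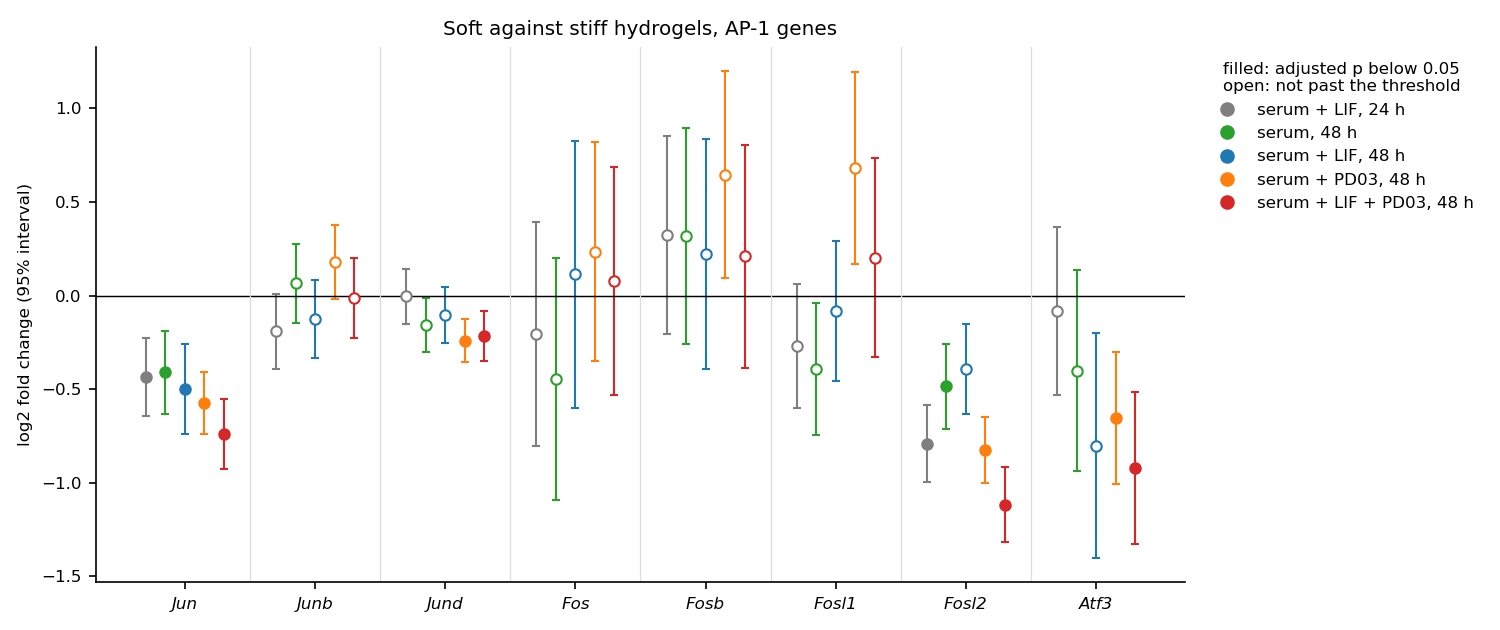
Log2 fold change of soft against stiff substrates for each AP-1 gene in 5 combinations of medium and time. Points are estimates from the edgeR fit, bars are 95% intervals, filled points passed an adjusted p of 0.05, and values below 0 are lower on soft. Jun is filled in all 5 and Fosl2 in 4, with the lowest point at -1.12, while Fos, Fosb, Fosl1 and Junb have no filled point.

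With the identifier as a term, Fosl2 and Jun were still called in both PD03 media under all 45 assignments. Their log2 fold changes then ranged from -0.995 to -0.70 and from -0.66 to -0.52 with serum + PD03. The ranges with LIF added were -1.37 to -0.92 and -0.86 to -0.65. The other calls at 48 h did not hold so widely. Jun was called under none of the 45 in serum (-0.53 to -0.32) or in serum + LIF (-0.69 to -0.33), and Fosl2 in serum under 9 (-0.74 to -0.29). Atf3 was called under 8 with PD03 in serum and under 19 with PD03 and LIF, and Jund under 16 and 3.

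Single libraries also decided calls near the threshold. The call of Jun at 24 h was lost without soft library 3 (-0.37, edgeR adjusted p = 0.0779) or stiff library 2 (-0.36, 0.0854). In serum it was lost without soft library 2 (-0.41, 0.0576), soft library 3 (-0.36, 0.0991) or stiff library 2 (-0.35, 0.106). In serum + LIF it was lost without soft library 2 or 3 or stiff library 2 or 3 (-0.49 to -0.41, edgeR adjusted p = 0.0846 to 0.285). In serum + PD03, Jund was lost without stiff library 1 (-0.17, 0.166), and Atf3 without stiff library 1 (-0.63, 0.0799) or 2 (-0.58, 0.126). In serum + LIF + PD03, Jund was lost without any of the stiff libraries or without soft library 3 (-0.24 to -0.17, edgeR adjusted p = 0.0558 to 0.243). No call of Fosl2 was lost this way.

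Fibroblast markers summed lower on soft, the same direction as Fosl2 and Jun, and of the single markers only the collagen I chains were called. Col1a1 alone stood at 9.75 to 79.2 CPM over all libraries. The 7 markers summed to 22.2 to 41.5 CPM in the soft libraries, to 32.7 to 91.3 in the stiff libraries and to 69.5 to 79.5 on plastic. Of the 6 that could be tested, 1 was called lower on soft in serum + LIF at either time and 2 in each of the other media. These were Col1a1 and Col1a2, the collagen I chains, with Col1a1 at -1.19 at 24 h and at -0.69 to -1.43 at 48 h. Of the defining markers, Lum stood at 0 to 0.19 CPM, Dcn at 0 to 1.73 and Postn at 0 to 2.86. The 6 primitive endoderm markers also summed lower on soft in the media with PD03, to 82.2 to 104.5 CPM against 117.0 to 125.9 CPM on stiff in serum and to 100.3 to 111.9 CPM against 129.8 to 139.5 CPM with LIF. Of these 6, Dab2 was called lower on soft at 24 h and in both of these media (-0.44 to -0.36). Their part in the result was not tested.

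PD03 against no PD03 addressed how AP-1 transcripts depend on MEK. Of the 8 members 6 were called in each comparison, where 27.8 to 29% of all genes were called higher and 26.6 to 28.5% lower. Jun, Jund, Fosl2 and Atf3 rose and Fosl1 and Junb fell on both substrates and with or without LIF, while Fos and Fosb were not called. All these comparisons were made at 48 h, and in none of the 4 did the libraries of a called member overlap between the groups.

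Fosl1 fell most. On soft substrates in serum it stood at 5.97, 5.72 and 4.74 CPM without PD03 and at 1.21 to 1.77 CPM with a median of 1.51 over the 6 libraries with it. The level was 3.67-fold lower (log2 fold change -1.88, SE 0.18, edgeR adjusted p = 3.79e-13). On stiff substrates in serum the libraries went from 6.47, 8.39 and 6.90 CPM to 0.577, 1.19 and 0.899 CPM, a 7.72-fold lower level (log2 fold change -2.95, SE 0.23, edgeR adjusted p = 6.5e-16). With PD03 the counts of Fosl1 were 9 to 35 per library, so its level there rests on few reads. In serum + LIF the log2 fold change was -1.92 (SE 0.22) on soft and -2.21 (SE 0.22) on stiff, from 3.92 to 6.61 CPM without PD03 to 0.787 to 1.54 CPM with it.

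Jun rose in the same libraries. On soft substrates its values went from 10.9, 10.1 and 9.43 CPM in serum to between 17.5 and 19.9 CPM with PD03 (log2 fold change 0.91, SE 0.09, edgeR adjusted p = 4.97e-12). On stiff substrates they went from 13.3, 14.5 and 12.7 CPM to 33.95, 25.5 and 25.9 CPM (log2 fold change 1.07, SE 0.10, edgeR adjusted p = 2.8e-13). In serum + LIF the rise was 2.36-fold on soft (log2 fold change 1.24, SE 0.11) and 2.78-fold on stiff (1.48, SE 0.10). On stiff in serum + LIF all libraries with PD03, at 30.05 to 36.01 CPM, stood far above those without, at 10.2 to 12.6 CPM.

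Atf3 had the largest relative rise of the members. On soft substrates in serum + LIF it went from 0.502, 1.33 and 0.916 CPM to 2.62, 2.74 and 3.16 CPM, a log2 fold change of 1.62 (SE 0.27, edgeR adjusted p = 9.75e-07). On stiff substrates it went from 1.28, 1.18 and 2.20 CPM to 4.97, 5.90 and 5.27 CPM, a log2 fold change of 1.74 (SE 0.23, edgeR adjusted p = 3.43e-09). In serum the values were 1.36 (SE 0.22) on soft and 1.61 (SE 0.23) on stiff. The libraries did not overlap in any of these.

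Fosl2 rose by 0.58 (SE 0.10) on soft and 0.92 (SE 0.10) on stiff in serum, and by 0.62 (SE 0.12) and 1.34 (SE 0.10) in serum + LIF, on the log2 scale. Its 3 stiff libraries in serum + LIF went from 12.3, 10.1 and 11.3 CPM to 29.01, 26.6 and 29.8 CPM, and its soft libraries from 8.47, 9.72 and 7.46 CPM to 12.1, 12.2 and 15.1 CPM. Jund rose by 0.74 to 0.96 on the log2 scale, from 42.3 to 57.8 CPM over the libraries on hydrogels at 48 h without PD03 to 72.1 to 102 CPM with it. Junb, which is often opposed to c-Jun in cell growth, fell on soft and stiff in serum (log2 fold change -0.32 and -0.44) and in serum + LIF (-0.45 and -0.56, edgeR adjusted p = 0.00213, 0.000659, 0.00028 and 6.79e-06). Its libraries ranged from 15.9 to 24.3 CPM without PD03 and from 12.7 to 17.3 CPM with it, and they did not overlap within any of the 4 pairs of groups.

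Fos and Fosb, the members best known as immediate-early genes, were not called. Fos had values of 0.24 (95% interval -0.33 to 0.81) and -0.44 (-1.09 to 0.22) on soft and stiff in serum, and of 0.47 (-0.19 to 1.13) and 0.51 (-0.15 to 1.17) in serum + LIF. In serum + LIF on soft it was called without soft library 2, the highest of that group at 2.48 CPM (0.94, edgeR adjusted p = 0.0319). On stiff in serum + LIF all libraries of Fos with PD03, at 2.05 to 2.16 CPM, lay just above those without, at 1.11 to 1.996 CPM. Fosb had values of -0.51 to -0.18, with intervals that all held 0, and its libraries overlapped except on stiff in serum.

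In each of the 4 comparisons 4 of 8 members were called higher with PD03 and 2 of 8 lower. The background was high as well. On soft in serum 29% of all genes were called higher and 28.5% lower, and on stiff in serum 28.4% and 27.4%. In serum + LIF the shares were 27.8% and 26.6% on soft, and 28.3% and 27.8% on stiff. A count of 2 of 8 lower is near the share of all genes that fell. The primitive endoderm markers also stood apart, at 45.0 to 68.5 CPM without PD03 and 82.2 to 139.5 CPM with it. Dab2 rose by 1.61 to 2.31 on the log2 scale and made up most of that sum at 19.5 to 118 CPM, Sox7 fell (-2.54 to -2.18), and Sox17 was at most 1.35 CPM. On stiff substrates the fibroblast markers summed to 32.7 to 53.3 CPM at 48 h without PD03 and to 67.3 to 91.3 CPM with it, and on soft to 22.2 to 30.1 and 27.4 to 41.5 CPM, with Col1a1 higher (0.99 to 1.81 on the log2 scale) and Thy1 lower (-2.12 to -1.88). Their part in the result was not tested. The PD03 comparisons lie mostly within an identifier, so the identifier as a term could change little there. With it all 6 members were called in all 45 assignments. Ccdc85b, which overlaps Fosl1, was called lower with PD03 on soft in serum (-0.60, edgeR adjusted p = 0.0171) and on stiff in serum + LIF (-0.80, 0.00717), and not in the others (-0.55 and -0.02). Prdx2, which overlaps Junb, was called lower in all 4, in the same direction as Junb (-0.26 to -0.16, edgeR adjusted p = 0.000103 to 0.00863).

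**Figure D3:**
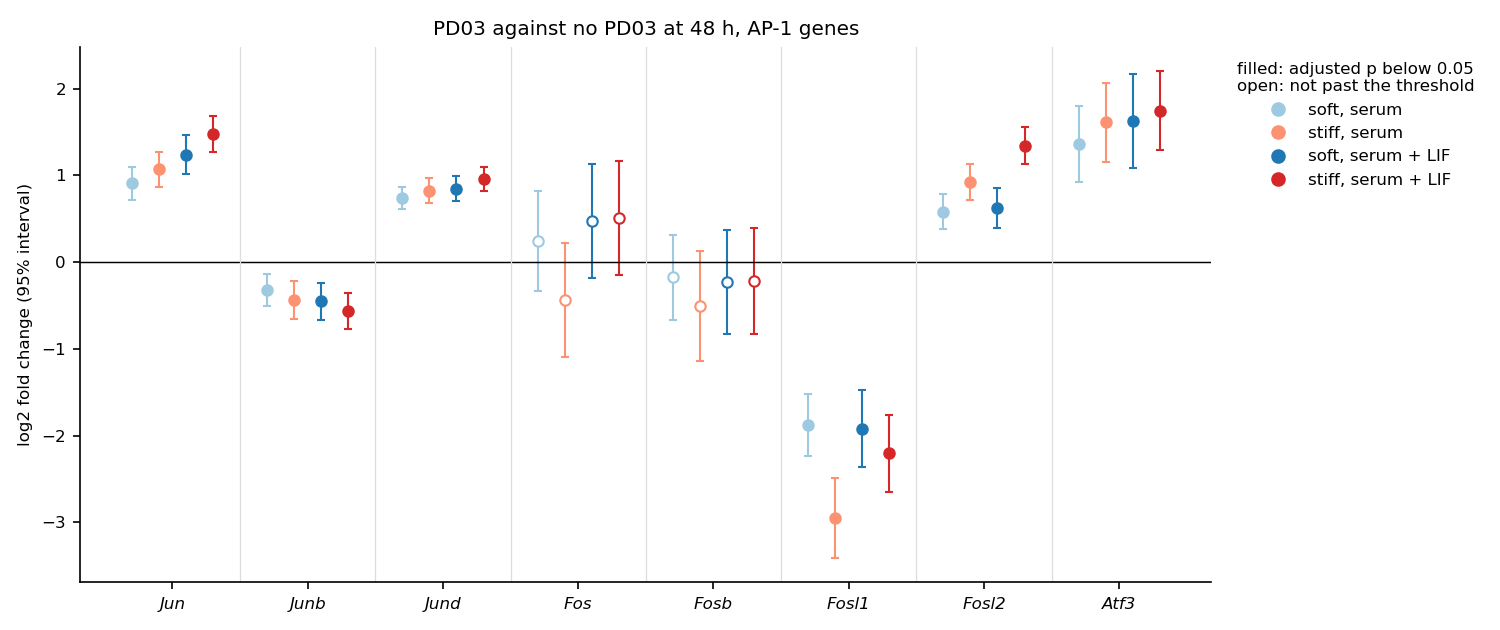
Log2 fold change with PD03 against without at 48 h for each AP-1 gene, on soft and stiff substrates in serum and in serum + LIF. Points are estimates from the edgeR fit with 95% intervals, and filled points passed an adjusted p of 0.05. Jun, Jund, Fosl2 and Atf3 lie above 0 and Fosl1 and Junb below it in all 4, with Fosl1 reaching -2.95, while Fos and Fosb are open.

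The composition of the Fos family shifted with it. As a share of the summed CPM per kb of Fos, Fosb, Fosl1 and Fosl2, Fosl1 held 48.6 to 59.5% in the 7 groups without PD03 and 12.2 to 23.6% in the 4 groups with it. Fosl2 went from 19.3 to 34.1% to 41.7 to 63.9%. On stiff substrates with PD03, Fosl2 held 63.9% ± 1.08 (SD, n = 3) in serum and 63.1% ± 0.627 in serum + LIF, against 42.1% ± 4.6 (n = 6) and 41.7% ± 4.51 (n = 3) on soft, with no overlap of libraries. These shares compare genes of different length. With the longest transcript in place of all exons, Fosl1 held 42.4 to 54.0% without and 9.67 to 19.5% with PD03.

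In the Jun family, Jund held 62.0 to 72.1% without PD03 and 77.6 to 79.7% with it, and Junb went from 18.3 to 26% to 8.29 to 11.1%. The share of Jun itself overlapped between groups, at 6.31 to 12.1% without and 9.43 to 13.2% with PD03. The summed level of the Jun family was 39.8 to 50.9 CPM per kb without PD03 and 60.0 to 76.6 with it. That of the Fos family was 4.50 to 9.65 without and 3.16 to 4.66 with PD03.

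**Figure D4:**
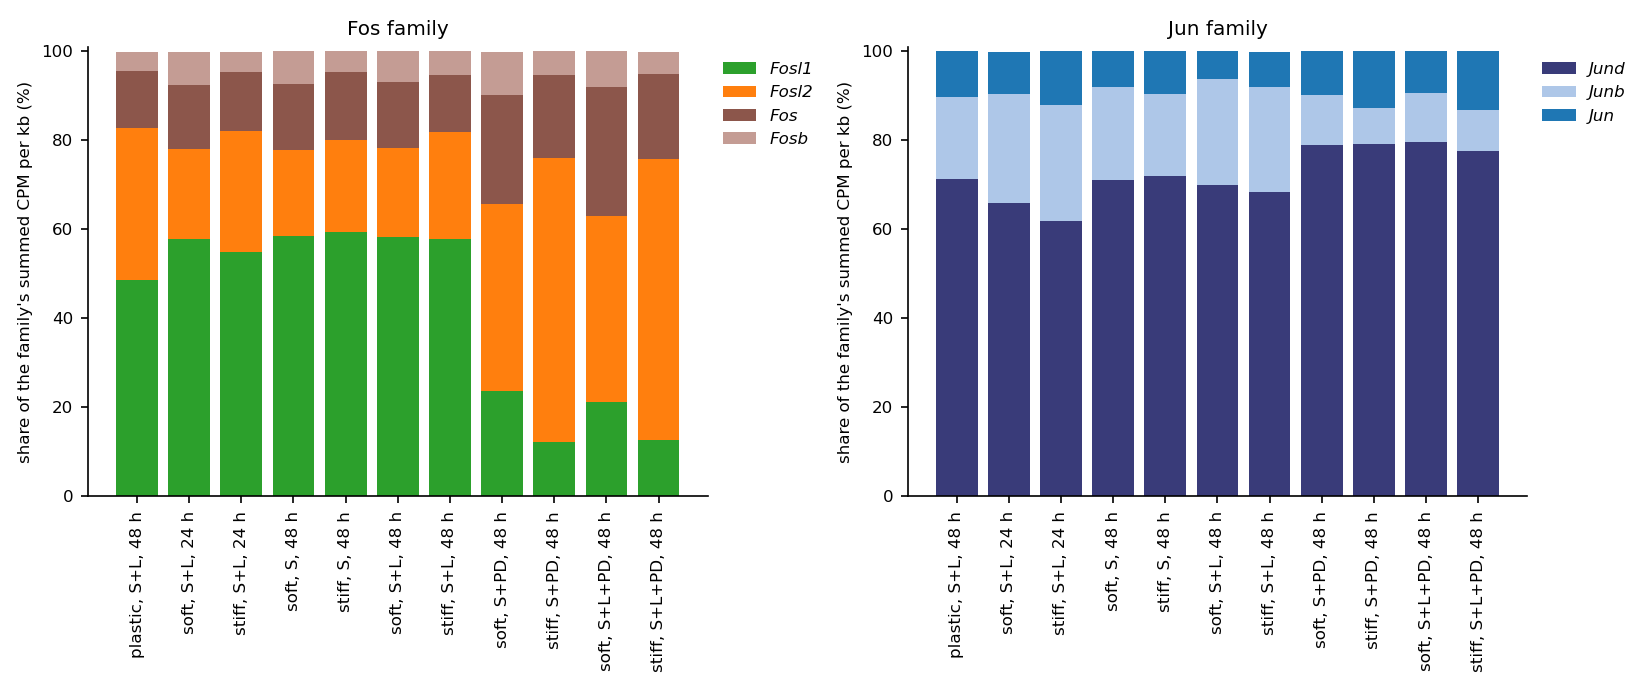
Mean share of each gene in the summed CPM per kb of the Fos family (left) and the Jun family (right) in each of 11 groups, in percent, as stacked bars from 0. S is serum, L is LIF and PD is PD03. Fosl1 is the largest share of the Fos family in every group without PD03, at 48.6 to 59.5%, and Fosl2 in every group with it, at 41.7 to 63.9%.

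Whether the stiffness difference itself depended on PD03 was tested by the interaction. In serum + LIF, Fosl2 was the only 1 of 8 members called (1.07% of all genes). Its soft against stiff difference lay lower with PD03 than without (log2 scale, -0.72, SE 0.16, 95% interval -1.04 to -0.41, edgeR adjusted p = 0.00608). The call was lost without library 2 of soft serum + LIF (-0.63, edgeR adjusted p = 0.0645). With the identifier as a term it held under all 45 assignments (-0.79 to -0.66). Both soft groups carried the third identifier, and both stiff groups the second except for 1 sample in serum + LIF. The term therefore nearly cancels in this interaction, and the result with it is no check on the identifier. The endoderm marker Dab2 had an interaction of the same size (-0.70, SE 0.12, edgeR adjusted p = 0.00014), and its part in the result was not tested. It was the only 1 of the 6 primitive endoderm markers called here, and the median of the 6 was 0.10. Of the 6 fibroblast markers tested, 0 were called here, with a median of -0.94, and their part was not tested either. In serum, 0 of 8 members were called (0.797% of all genes), 2 had an unadjusted p below 0.05 and DESeq2 called 0. Those were Fosl2 (-0.34, 95% interval -0.63 to -0.05, edgeR adjusted p = 0.316) and Fosl1 (1.07, 0.45 to 1.69, edgeR adjusted p = 0.0863). Atf3 and Jund, called between substrates only with PD03, had interactions of -0.25 and -0.08 in serum and -0.12 and -0.11 in serum + LIF, and none was called, so a dependence of their stiffness difference on PD03 was not shown.

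Jun and Atf3 had the most similar profiles. Over the 11 group means of log2 CPM, Jun had a Pearson r of 0.98 with Atf3, the highest of any gene for Atf3 among 10475 compared. These are descriptions over groups that share libraries, media and scaling, and carry no test. Fosl2 and Jun had an r of 0.88, Fosl1 and Junb 0.89, and Fosl1 and Jund -0.93. The genes most like Jun were Gprc5c, Gsn and Dsc2 (r of 0.99 each), and those most like Fosl2 were Rnf128, Tubb6 and Dsp (0.99, 0.99 and 0.98). Those most like Fosl1 were Foxh1, Nedd8 and Rbck1 (0.99 each), those most like Jund were Phlpp2, Chst12 and Tanc2 (0.99 each), and among those most like Junb were Mrpl33 and Fam129a (0.97 and 0.96). After Jun, Atf3 was most like Ppp1r13b and Anxa2 (0.97 each). Fos and Fosb, with the fewest reads, reached r of 0.90 with Arfip1 and 0.95 with Cabin1.

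For members that moved together, the 250 bases before the start site were read from RefSeq (build GRCm38.p6), which held 7 of the 8 members, without Fosl1. Jun is known to bind and activate its own promoter at sites that resemble the ATF site and to be activated by MEF2 factors there. Jun, Atf3, Fosl2 and Jund all rose with PD03 and were lower on soft than on stiff substrates in its presence. Of these, the promoters of Jun and Atf3 are shown, chosen after the search because they hold 2 of the motifs searched, and that of Fos because Fos was called in neither comparison. The window of Fosl2 held no match of any motif searched. Capitals mark TNACNTCA, an AP-1 or ATF-like site, and the MEF2 consensus in Jun and Atf3, and TGACG, the core of a CRE, and TATAA in Fos. Sequences are 5′ to 3′ on the gene's strand and end at the base before the RefSeq start site. For Atf3 and Fosl2 that start lies inside the GENCODE gene given above, downstream of its outermost start, and for Jund upstream of it.
Jun, chr4:95052223-95052472, minus strand: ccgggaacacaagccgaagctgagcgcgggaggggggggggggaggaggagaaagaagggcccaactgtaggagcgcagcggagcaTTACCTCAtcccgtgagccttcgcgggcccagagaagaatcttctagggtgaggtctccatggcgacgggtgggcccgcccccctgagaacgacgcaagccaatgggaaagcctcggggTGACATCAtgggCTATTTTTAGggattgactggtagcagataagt
Atf3, chr1:191183334-191183583, minus strand: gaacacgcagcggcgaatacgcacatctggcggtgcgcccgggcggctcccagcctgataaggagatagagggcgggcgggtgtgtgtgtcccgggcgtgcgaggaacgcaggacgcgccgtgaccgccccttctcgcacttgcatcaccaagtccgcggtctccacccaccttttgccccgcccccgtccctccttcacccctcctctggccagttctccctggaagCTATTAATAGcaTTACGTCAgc
Fos, chr12:85473640-85473889, plus strand: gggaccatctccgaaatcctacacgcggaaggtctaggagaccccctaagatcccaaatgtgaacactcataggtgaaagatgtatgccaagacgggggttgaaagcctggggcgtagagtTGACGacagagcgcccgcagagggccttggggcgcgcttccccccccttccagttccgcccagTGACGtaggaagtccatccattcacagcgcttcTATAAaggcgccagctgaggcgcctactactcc

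Motifs were searched on both strands over the same 250 bases of 32851 promoters. TNACNTCA was in 3 of the 7 members and in 14% of all promoters. The pattern covers both Jun sites, TTACCTCA and TGACATCA. Jun was known beforehand to hold sites of this kind and to respond to MEF2, so its matches were set in advance. It started 164 and 45 bases upstream of the start in Jun, 10 bases upstream in Atf3 and, on the other strand, 95 bases upstream in Jund. The MEF2 consensus was in Jun (33 bases upstream) and Atf3 (22 bases upstream) and in 2.92% of all promoters, and both motifs were in 0.478%. Because Jun and Atf3 were picked for holding both, that share is no test of them. In Atf3 the TNACNTCA match overlaps a TGACG on the other strand. TGACG was in 4 of the 7 members, Fos, Fosb, Junb and Atf3, and in 17.8% of all promoters, and TATAA in Fos and in 22.8%. The strict AP-1 site TGACTCA (4.46% of all promoters), TGACGTCA (1.55%) and the CArG box that SRF binds (1.47%) were in none of the 7 windows. A match or its lack describes these letters only. Sites further than 250 bases upstream, in Fos or in any other member, were not searched.

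LIF against no LIF addressed the part of that cytokine. Junb, a known target of STAT3, was the 1 of 8 members called, on stiff substrates in serum (1.41% of all genes called in either direction). It stood at 23.8, 23.9 and 24.3 CPM with LIF and at 15.9, 19.6 and 19.8 CPM without. The groups did not overlap, and the level was 1.32-fold higher with LIF (log2 fold change 0.40, SE 0.10, edgeR adjusted p = 0.0366). The call was close to the threshold and was lost without any of the libraries but library 3 of stiff serum (0.27 to 0.45, edgeR adjusted p = 0.0511 to 0.315), and it held under none of the 45 assignments of the identifier. On soft substrates in serum Junb had a value of 0.21 (95% interval -0.0020 to 0.42) with no overlap of libraries, and in serum + PD03 values of 0.08 on soft and 0.27 on stiff.

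On soft substrates in serum 0 of 8 members were called with LIF (0.0169% of all genes), and 1 had an unadjusted p below 0.05. That was Jun, at 8.97, 8.06 and 7.46 CPM with LIF and 10.9, 10.1 and 9.43 CPM without (-0.31, 95% interval -0.55 to -0.07, edgeR adjusted p = 0.501). In serum + PD03, 0 of 8 were called on soft (0.107%), with 0 at an unadjusted p below 0.05, and 0 of 8 on stiff (0.514%), with 2. Those 2 were Fosl2 (0.33, 95% interval 0.14 to 0.52, edgeR adjusted p = 0.121) and Junb (0.27, 0.05 to 0.49, edgeR adjusted p = 0.413). DESeq2 called 0 in each of these. The interaction of stiffness with LIF called 0 of 8 without PD03 (0.0847% of all genes, 0 at an unadjusted p below 0.05) and 0 of 8 with PD03 (0.00565%, with 1, Fosl2 at -0.29, 95% interval -0.56 to -0.02), and DESeq2 called 0 in both.

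Time in serum + LIF was the comparison in which most members moved the same way. From 24 h to 48 h, 6 of 8 members fell on soft substrates (11.4% of all genes were called lower) and 7 of 8 on stiff (13%), and none rose. Atf3 fell from 3.14, 1.99 and 3.24 CPM to 0.502, 1.33 and 0.916 CPM on soft, a 3.03-fold lower level (log2 fold change -1.60, SE 0.28, edgeR adjusted p = 1.53e-05), and on stiff from 2.52, 2.94 and 3.38 CPM to 1.28, 1.18 and 2.20 CPM (-0.88, SE 0.24, edgeR adjusted p = 0.00413). Fosl2 fell on soft (-0.77, SE 0.12) and on stiff (-1.17, SE 0.10), from 23.1, 26.8 and 26.01 CPM to 12.3, 10.1 and 11.3 CPM on the latter. Jun fell likewise (-0.82, SE 0.12, and -0.76, SE 0.11). No library at 48 h reached the lowest at 24 h in any of these.

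Fosl1 fell from 7.23, 10.4 and 9.14 CPM to 6.396, 5.71 and 3.92 CPM on soft (-0.74, SE 0.18, edgeR adjusted p = 0.0014) and from 10.3, 9.996 and 12.1 CPM to 5.83, 6.61 and 4.71 CPM on stiff (-0.93, SE 0.17, edgeR adjusted p = 3.1e-05). Fosb (-0.85 and -0.75) and Junb (-0.28 and -0.35) fell on soft and stiff. Fos fell on stiff, from 2.42, 3.23 and 3.38 CPM to 1.21, 1.11 and 1.996 CPM (-1.03, SE 0.32, edgeR adjusted p = 0.0123), and had a value of -0.71 on soft with overlapping libraries (95% interval -1.38 to -0.04, edgeR adjusted p = 0.116). Jund was not called, at -0.14 (-0.29 to 0.01) and -0.04 (-0.19 to 0.10). The interaction of stiffness and time called 0 of 8 members (0.254% of all genes, 1 at an unadjusted p below 0.05, DESeq2 0). That 1 was Fosl2 (0.40, 95% interval 0.08 to 0.72, edgeR adjusted p = 0.331). The fibroblast markers went from 50.5 to 57.7 CPM at 24 h to 32.7 to 39.5 CPM at 48 h on stiff, and from 23.7 to 35.5 CPM to 24.5 to 30.1 CPM on soft, and their part in the result was not tested.

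On soft substrates the time comparison coincides with the identifier, so that time and identifier cannot be told apart there. With the identifier as a term only indirect information remains, and Jun and Atf3 were called under 24 of the 45 assignments, Fosl2 under 21, Fosl1 under 1, and Fosb and Junb under none. On stiff, where 1 of the 48 h samples carried the first identifier, Fosl2 (-1.33 to -1.04) and Jun (-0.94 to -0.64) were called under all 45, Fosl1 and Atf3 under 30, Fos under 5, and Fosb and Junb under none. Leaving out single libraries ended the call of Fosb on soft without library 2 of the 24 h group or library 2 or 3 of the 48 h group (edgeR adjusted p = 0.0504 to 0.143), and of Junb on soft without library 1 or 2 at 24 h or any at 48 h (0.0555 to 0.302). On stiff it ended that of Fosb without any library but library 1 at 24 h (0.0658 to 0.16), of Junb without library 3 at 24 h (0.186), and of Fos without library 1 or 2 at 48 h (0.0588 and 0.0693). Without library 2 of soft serum + LIF at 48 h, Fos was called on soft (-1.18, edgeR adjusted p = 0.021).

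Plastic was compared with both hydrogels in serum + LIF at 48 h, and these comparisons share their libraries with the others. Fosl2 stood at 16.8, 17.5 and 18.99 CPM and Jun at 16.3, 14.7 and 15.3 CPM on plastic, above all libraries of either hydrogel in that medium and time. Fosl2 was lower than on plastic on soft (log2 fold change -1.05, SE 0.11) and on stiff (-0.66, SE 0.11), and so was Jun (-0.92, SE 0.12, and -0.42, SE 0.11). Atf3 (-1.12, SE 0.29, edgeR adjusted p = 0.0055) and Jund (-0.26, SE 0.07, edgeR adjusted p = 0.0131) were called lower on soft than on plastic, at 2.23, 1.94 and 1.80 CPM and at 58.5, 57.1 and 54.5 CPM on plastic. In all, 4 of 8 members were lower on soft (6.47% of all genes) and 2 of 8 on stiff (3.59%).

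For the soft gels, plastic and identifier cannot be told apart. Under the 45 assignments Fosl2 was called under 35 on soft and 30 on stiff, and Jun under 27 and 15, while Atf3 and Jund were called under 1 each. On soft the direction of both turned under some assignments, with ranges of -2.01 to 0.08 for Atf3 and -0.53 to 0.05 for Jund. Jun on stiff was no longer called without plastic library 1 (-0.38, edgeR adjusted p = 0.0791) or stiff library 1 (-0.35, 0.113), Jund on soft without plastic library 1 or 2 or soft library 2 or 3 (-0.25 to -0.16, edgeR adjusted p = 0.0564 to 0.205), and Atf3 on soft without soft library 1 (-0.80, 0.0909). Of the 6 fibroblast markers tested, Col1a1 (-2.10 on soft and -1.41 on stiff against plastic) and Col1a2 (-2.16 and -1.65) were also higher on plastic, while Thy1 was lower there (0.68 and 0.69). Of the 6 primitive endoderm markers, 3 were called higher on soft than on plastic, and on stiff 4 were called higher and 1 lower. Their part in the result was not tested.

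**Figure D5:**
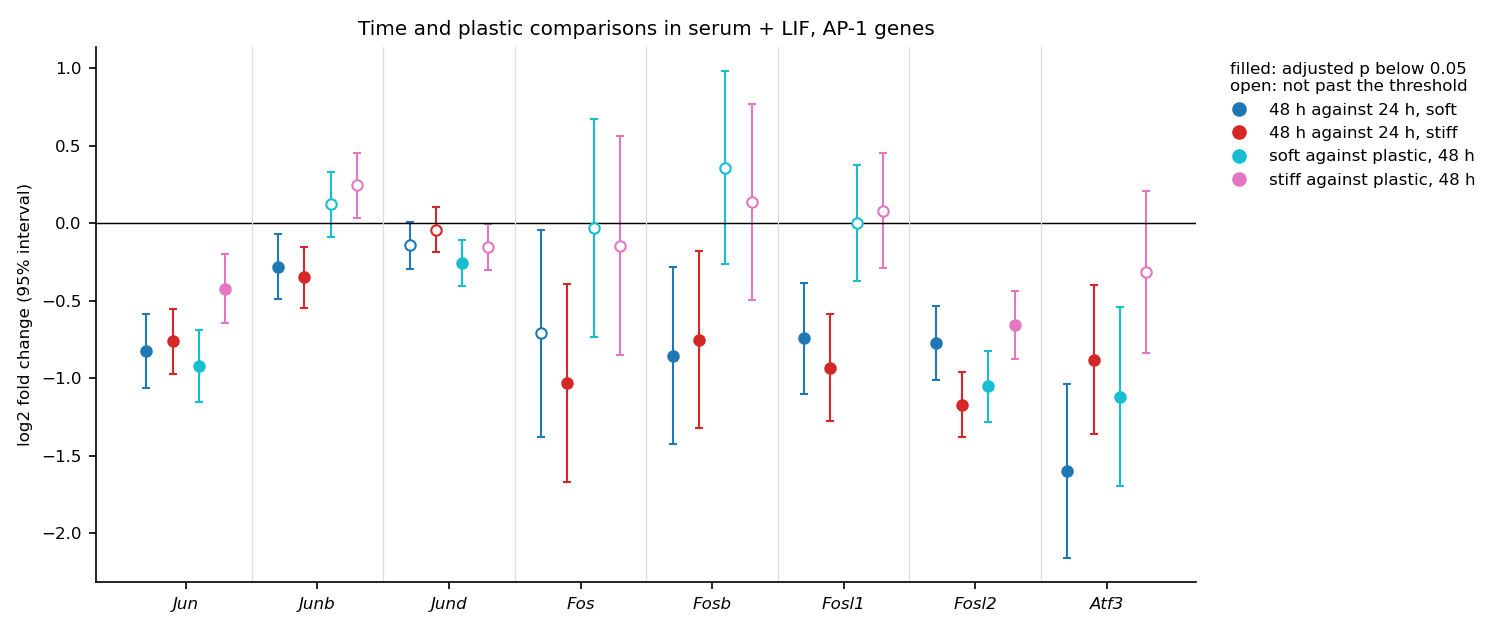
Log2 fold change in serum + LIF of 48 h against 24 h on soft and stiff substrates, and of soft and of stiff substrates against plastic at 48 h, for each AP-1 gene. Points are estimates from the edgeR fit with 95% intervals, and filled points passed an adjusted p of 0.05. Jun and Fosl2 are filled and below 0 in all 4, and Jund lies between -0.26 and -0.04.

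The other genes of the pathway were taken from lists. Their counts stand beside the shares of all genes already given, which with PD03 were 27.8 to 29% higher and 26.6 to 28.5% lower. Of 10 tested bZIP partners of AP-1, none was called between soft and stiff substrates. With PD03, 3 rose in each of the 4 comparisons, among them Jdp2, a repressor that pairs with Jun (2.20 to 2.74 on the log2 scale), and Atf7 (0.75 to 0.89), while 1 to 3 fell, among them Maff (-0.75 to -0.33). A count of 3 of 10 is near the share of all genes that rose.

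Of 14 other immediate-early genes, 4 were called lower on soft at 24 h, 4 in serum, 1 in serum + LIF at 48 h and 5 in each PD03 medium, and 1 was higher, in serum + LIF + PD03. Of all genes, 0.333 to 4.82% were called lower in these comparisons. Ccn1, a matrix protein and target of SRF and YAP, was lower in all 5 (-0.62 to -0.40). With PD03, 5 rose and 4 or 5 fell, near the shares of all genes. Egr1, an immediate-early gene widely used as a readout of ERK, fell in all 4 (-5.17 to -4.73 on the log2 scale), and so did Myc (-2.94 to -2.63). The largest rises were those of Ier3 in serum, by 0.94 and 0.96, and of Ccn1 and Klf6 in serum + LIF, by 0.93 to 1.17. From 24 h to 48 h, 6 of the 14 fell on soft and 7 on stiff (11.4 and 13% of all genes), and Egr1 rose by 0.68 and 0.63.

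Of 15 genes of the ERK and JNK cascade and of Jun turnover, 1 was called between soft and stiff, Rps6ka3, in the PD03 media (-0.18 and -0.22). With PD03, 6 or 7 of the 15 rose and 3 or 4 fell, the latter near or below the share of all genes. Gsk3b, a kinase that marks c-Jun for degradation, rose by 1.02 to 1.14, and Mapk8 and Mapk3, which encode JNK1 and ERK1, fell (-0.65 to -0.52 and -0.50 to -0.43). Of 6 genes of SRF and its cofactors, which drive Fos through the CArG box, none was called between soft and stiff. With PD03, 3 or 4 of the 6 rose, with Elk1 at 0.38 to 0.44, and 1, Elk3, fell (-1.43 to -0.92).

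Of 12 textbook AP-1 targets, 9 were tested. Between soft and stiff, 1 was called higher in each of the 5 comparisons and 1 lower in each except serum + LIF at 48 h. Spp1, which encodes osteopontin, was higher on soft in 4 of the 5 comparisons (0.20 to 0.35), and Ccnd1 in serum + LIF + PD03 (0.23). Vim was lower on soft at 24 h and in serum (-0.26 and -0.25), and Plaur, the urokinase receptor, in both PD03 media (-0.56 and -0.73). With PD03, 2 rose (Spp1, 1.32 to 1.68, and Timp1, 0.51 to 0.71) and 5 fell, with the largest falls in Cd44 (-1.56) and Plaur (-1.25) on soft in serum, Ccnd1 (-1.35) and Cd44 (-1.33) on stiff in serum, Cd44 (-1.39) and Ccnd1 (-1.24) on soft in serum + LIF, and Ccnd1 (-1.44) and Mmp9 (-1.17) on stiff in serum + LIF. Of 8 genes of the integrated stress response, which induces Atf3 through Atf4, 1 was called between soft and stiff, Atf4 in serum + LIF + PD03 (0.18). With PD03, 4 to 7 of the 8 rose and none fell, with Asns at 1.10 to 1.30. From 24 h to 48 h, 4 of the 8 fell on either substrate (11.4 and 13% of all genes). The median log2 fold change of this list with PD03 was 0.13 to 0.49, and that of all genes tested -0.01 to 0.01.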

How the data were processed

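RNA-seq was performed by the authors on total RNA of 36 mESC samples. Per the labels, RNA was extracted with RNeasy and libraries were made with a NuGen kit. The submitters' processing notes name STAR 2.5.2a, HTSeq, DESeq and mm10/GRCm38. The authors deposited raw read counts per gene, of which 49671 genes were in the table, 13380 without a count. The strand setting is not given in the sources used here.

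Symbols were found for 49326 genes from GENCODE M21. The 8 members, the other gene lists and the tests were chosen with earlier results of these data known. Counts were filtered with edgeR 4.0.16 (filterByExpr by group, 17702 genes with 99.92% of the counts), scaled by TMM and fitted with the quasi-likelihood model over all 36 libraries with 1 coefficient per group (R 4.3.3, limma 3.58.1). The SE is the absolute log2 fold change over the square root of F. Groups came from the labels, and library totals were 10405696 to 26635239 counts. All 45 pairs of replicates differed beyond counting noise (chi-square per gene 2.219 to 13.4), so none was counted as a duplicate. The pipeline was tested on simulated data. Alternatives were RLE size factors, no filter, only the groups compared, DESeq2 1.42.0, the identifier as a term and leaving out each library. All members were named, and of every other list at most 2 genes per direction and comparison, those with the largest called change and a mean of at least 1 CPM. For likeness, the 3 genes of highest Pearson r over group means were taken among genes with a mean of at least 5 CPM. For Junb, 1 of these is not reported here. Figures were drawn with Python 3.11.15 and matplotlib 3.10.9.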

Additional observations from a re-analysis of the deposited data

Results flagged for a closer look

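Among the 6 libraries of soft substrates in serum + PD03, 1 library stood apart in Atf3, at 4.10 CPM against a median of 2.99 and a lowest value of 2.67 CPM. Its gap to the next library was large for the range of the group. Chance flags about 1 in 20 groups, and Atf3 was 1 of 8 members examined in this group. Groups of 3 libraries were not examined in this way.

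The effect of stiffness on Fosl2 differed between media without and with PD03 in serum + LIF, by the test of the interaction (-0.72 on the log2 scale, SE 0.16, edgeR adjusted p = 0.00608). The soft against stiff difference was -0.39 without PD03 and -1.12 with it. The cause was not tested.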

How the results depend on the processing

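No paired analysis was possible because the columns of the count table carry no replicate numbers. Of 176 pairs of member and comparison, 58 were called. Over 2472 values under the alternatives, 2385 kept their side of the threshold without a called value turning, 82 lost the call, 3 gained it and 2 called values reversed. Among the 2385, 129 values that were not called took the other sign. RLE size factors changed no call. Without the filter, Junb over time on soft (-0.25, edgeR adjusted p = 0.0817) and Fosb over time on stiff (-0.75, 0.0753) were no longer called, and DESeq2 lost the same calls (DESeq2 adjusted p = 0.058 and 0.0596).

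With only the groups compared, the count of called members was 0 for soft against stiff in serum + LIF at 48 h (Jun, edgeR adjusted p = 0.0863), 0 for LIF on stiff in serum (Junb, 0.0504) and 1 for LIF on stiff in serum + PD03 (Fosl2, 0.33, 0.0154). With the identifier as a term, the lowest and highest counts over 45 assignments were 0 and 0 for soft against stiff in serum + LIF at 48 h, 0 and 1 in serum, 0 and 0 for LIF on stiff in serum, 1 and 1 for stiff against plastic, 0 and 3 for time on soft and 3 and 4 for time on stiff. The lowest count was 2 for soft against stiff in each medium with PD03 and 0 for soft against plastic, where Jund (0.0512) and Atf3 (0.0842) reversed in the highest assignment.

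Leaving out 1 library gave counts of 1 to 2 for soft against stiff at 24 h, 0 to 1 in serum + LIF at 48 h, 1 to 2 in serum, 2 to 4 in serum + PD03 and 3 to 4 in serum + LIF + PD03. They were 3 to 4 for soft and 1 to 2 for stiff against plastic, 0 to 1 for LIF on stiff in serum, 0 to 1 for the stiffness and PD03 interaction in serum + LIF, 4 to 6 and 5 to 7 for time on soft and stiff, 6 to 7 for PD03 on soft in serum + LIF and 6 to 6 for the other PD03 comparisons. With the longest transcript in place of all exons, 36 of 88 levels per kb moved by more than the SD and 6 of 88 ranks changed. Depth limits Fos, Fosb, Atf3 and, with PD03, Fosl1, whose intervals are wide.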
